A study of Homo sapiens with 8 samples.

Results

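Notch signalling passes between touching cells. A ligand of the Jagged or Delta-like families on one cell binds a NOTCH receptor on its neighbour, the receptor is cut inside the membrane, and the freed intracellular part joins the DNA-binding protein RBPJ to switch on genes of the HES and HEY repressor families. The pathway has been linked to stem-like growth and invasion in triple-negative breast cancer, where NOTCH1 and JAG1 are its best studied members. The 10 genes described here were chosen by symbol and not by a value measured here, though with earlier results of these data known. They are the receptors NOTCH1, NOTCH2, NOTCH3 and NOTCH4, the ligands JAG1, JAG2 and DLL1, the effector RBPJ, and the targets HES1 and HEY1. All 10 matched a record among 19974 protein-coding genes on chromosomes 1 to 22 and X.

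The values are H3K4me1 peaks of MDA-MB-231 cells, an established triple-negative breast cancer line, of 2 genotypes, ARID1A knockout and control. H3K4me1 is a histone mark found at enhancers and on either side of active start sites, and ARID1A belongs to the SWI/SNF complex, which moves nucleosomes. Each genotype had 2 immunoprecipitated and 2 input samples, labelled ARID1A knockout or control, and 1 deposited peak list of immunoprecipitate over input. The labels do not say how the gene was knocked out, nor whether the cells were 1 clone or a pool, and the protocol text calls the antibody one against H3K4me3 where the antibody label and titles say H3K4me1. With 1 list per genotype no spread between replicates could be had, so each difference describes these lists, no test was possible, and the depth behind a peak is unknown.

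The knockout list held 73600 peaks on these chromosomes, covering 176.3 Mb, and the control list 82994 peaks covering 183.2 Mb. Their median widths were 1587 bases in the knockout list and 1386 bases in the control list, and their median pileups were 16.4 in the knockout list and 13.6 in the control list. All 6 genes fixed as marks of this mesenchymal-like line (VIM, CD44, AXL, CAV1, ZEB1 and MSN) carried peaks in both lists, between 7431 and 55704 covered bases in the knockout list and between 7005 and 57589 in the control list. Of 6 luminal genes, PGR alone had no knockout peak (1081 control bases), while ESR1 had 36816 knockout and 27383 control bases. Among blood cell genes, PTPRC had 21892 knockout and 9452 control bases, CD14 had 2748 knockout and 1480 control bases, and CD3E had 1670 knockout and 1730 control bases. Expression of these genes was not measured here.

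For each gene the bases under a peak were summed over its record plus flanks of 5000 bases, and a difference of 1000 bases or more between the lists made a call. By that rule 4 of the 10 genes had less coverage in the knockout list (RBPJ, NOTCH2, JAG2 and NOTCH1), 2 had more (NOTCH4 and DLL1), and JAG1, HES1, HEY1 and NOTCH3 differed by less. Over all protein-coding genes 30% were lower and 20.2% were higher, so these counts lie near the background. The median difference over the 10 genes was -584 bases, against 0 bases over all genes and -337 bases over the 16814 genes with a peak in either list. Length sets covered bases, so levels are compared between genes only as the percent of the window covered. That share ran from 2.22% at NOTCH3 to 37.4% at DLL1 in the knockout list, leaving aside JAG2 with 0, and from 3.53% at NOTCH3 to 36.0% at HEY1 in the control list. DLL1, HES1 and HEY1, the shortest records of the 10, were the most densely covered in both lists. Their flanks together are longer than their records, and most of their covered bases lay in the flanks in both lists.

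**Figure D1:**
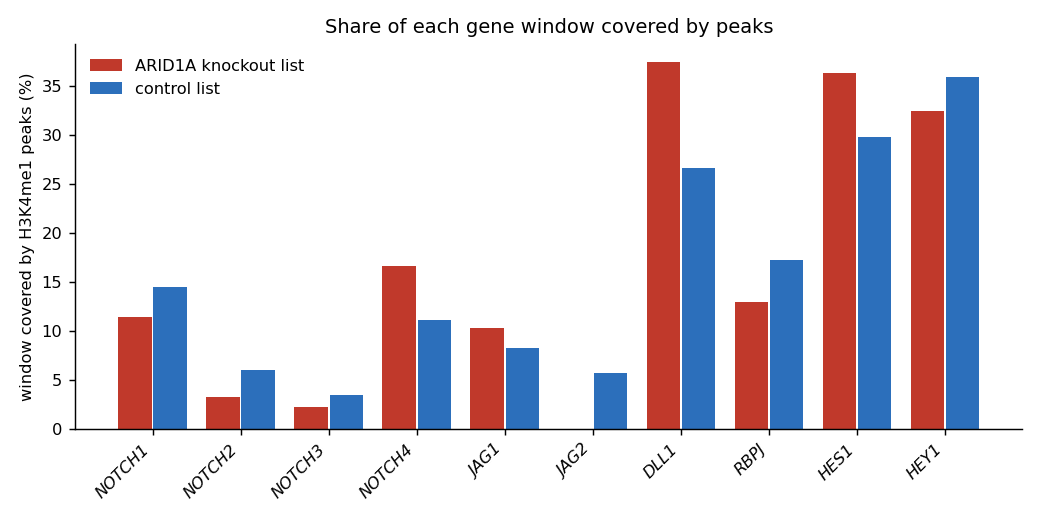
Percent of each gene window (record plus 5 kb on either side) covered by H3K4me1 peaks, with the ARID1A knockout list in red and the control list in blue, 1 deposited list per bar and no error bar. The knockout bar is the taller one at NOTCH4, JAG1, DLL1 and HES1, and JAG2 has no knockout bar.

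**Figure D2:**
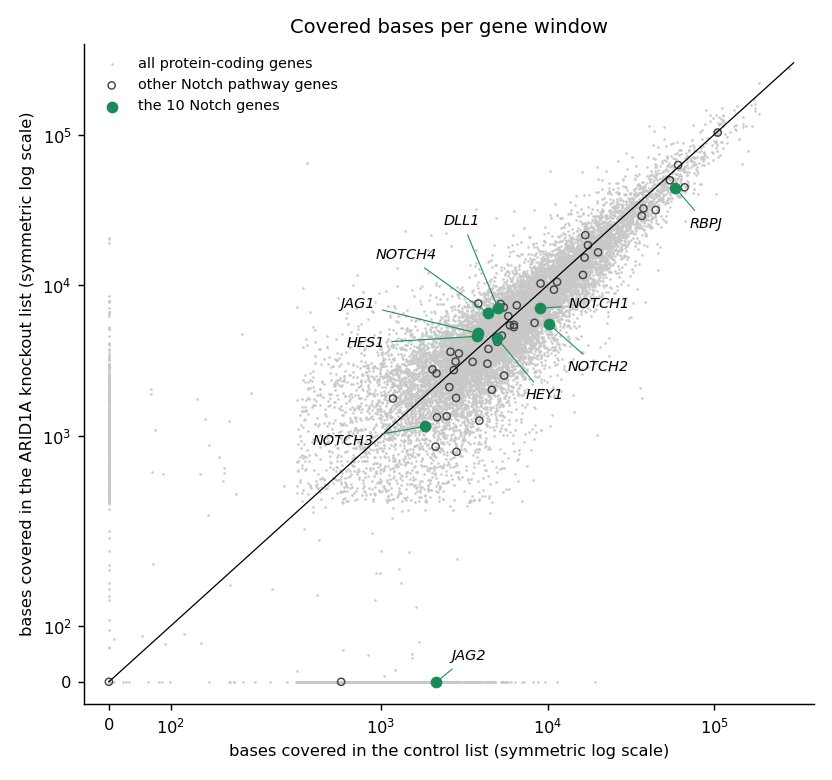
Bases covered in the knockout list (vertical) against the control list (horizontal) for all 19974 protein-coding genes, the 47 other Notch pathway genes (rings) and the 10 Notch genes (green), on symmetric log axes with the line of equality. The 10 genes lie within the cloud of all genes, and JAG2 sits on the horizontal axis with 2152 control bases and 0 knockout bases.

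H3K4me1 typically lines both sides of an active start site and is sparse at the start itself, so the annotated starts were set against the peaks. The RefSeq promoter table (GRCh38.p14) gave 12 starts for 8 of the genes, 5 of them at RBPJ. At 6 of the 12 the start lay in a gap with a peak within 5000 bases on each side, in each list, against 30.3% of all protein-coding starts in the knockout list and 40.3% in the control list. These 6 were the starts of NOTCH1, JAG1 and HES1 and a group of 3 at RBPJ. The 3 RBPJ starts lie in the same gap, which is thus counted 3 times, so the share is not read as an excess. A start lay inside a peak at 1 of 12 in the knockout list (24.1% of all starts) and at 2 of 12 in the control list (15.04% of all starts). The 300 bases from 250 before to 50 after the start are printed below for 4 of these starts. They are NOTCH1 and HES1, whose starts lie in such gaps in both lists, 1 start of RBPJ that also lies in a gap, and JAG2, whose start was inside a peak in the control list and not in the knockout list. All are read 5′ to 3′ along the gene, and capitals mark the core of the RBPJ motif, TGGGAA on either strand.
NOTCH1 (chr9:136545999-136546298, minus strand): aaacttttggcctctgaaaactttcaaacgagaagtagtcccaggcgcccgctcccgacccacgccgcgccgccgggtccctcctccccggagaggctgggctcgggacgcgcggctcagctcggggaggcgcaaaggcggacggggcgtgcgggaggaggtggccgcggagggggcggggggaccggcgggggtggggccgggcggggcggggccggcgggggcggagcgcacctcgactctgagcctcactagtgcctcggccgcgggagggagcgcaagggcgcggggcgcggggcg
JAG2 (chr14:105168727-105169026, minus strand): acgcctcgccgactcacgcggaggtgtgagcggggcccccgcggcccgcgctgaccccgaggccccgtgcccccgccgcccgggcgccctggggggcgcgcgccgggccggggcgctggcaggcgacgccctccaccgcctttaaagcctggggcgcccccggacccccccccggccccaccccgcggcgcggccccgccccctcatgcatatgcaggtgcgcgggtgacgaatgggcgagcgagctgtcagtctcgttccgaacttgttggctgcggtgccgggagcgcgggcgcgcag
RBPJ (chr4:26319496-26319795, plus strand): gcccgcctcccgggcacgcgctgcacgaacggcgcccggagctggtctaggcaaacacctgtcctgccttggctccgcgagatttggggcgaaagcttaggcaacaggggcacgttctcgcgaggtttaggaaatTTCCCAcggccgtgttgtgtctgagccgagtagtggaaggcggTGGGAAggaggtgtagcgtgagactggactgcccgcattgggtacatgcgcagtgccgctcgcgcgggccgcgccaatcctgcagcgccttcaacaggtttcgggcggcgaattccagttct
HES1 (chr3:194135898-194136197, plus strand): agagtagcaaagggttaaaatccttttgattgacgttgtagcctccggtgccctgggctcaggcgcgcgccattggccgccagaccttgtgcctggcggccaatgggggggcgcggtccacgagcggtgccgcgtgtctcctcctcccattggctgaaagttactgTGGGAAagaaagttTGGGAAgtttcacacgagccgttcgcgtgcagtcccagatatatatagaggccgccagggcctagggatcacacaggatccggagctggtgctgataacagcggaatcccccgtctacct

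The RBPJ core was present in 2 of the 12 windows, those of HES1 and of the RBPJ start just shown, and in 24.0% of all 35097 promoter windows of the table. HES1 held it at 2 places on the strand of the gene, beginning 84 and 70 bases before the start, and the promoter of HES1 is a textbook target of RBPJ. The RBPJ window held 2 cores on opposite strands, beginning 115 and 72 bases before the start. CACNAG, the N-box bound by HES repressors, was found in 6 of the 12 windows, against 38.03% of all windows, at 11 places of which 4 were in HES1. At NOTCH1 a pair of these places overlap each other at the start. TGANTCA, the AP-1 motif, occurred once at NOTCH4 and once at an RBPJ start, in 7.71% of all windows. CACGTG (7.25% of all windows) and GGAATG, the TEAD motif (14.04%), were in none of the 12. A match is a string of letters and does not show binding.

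**Figure D3:**
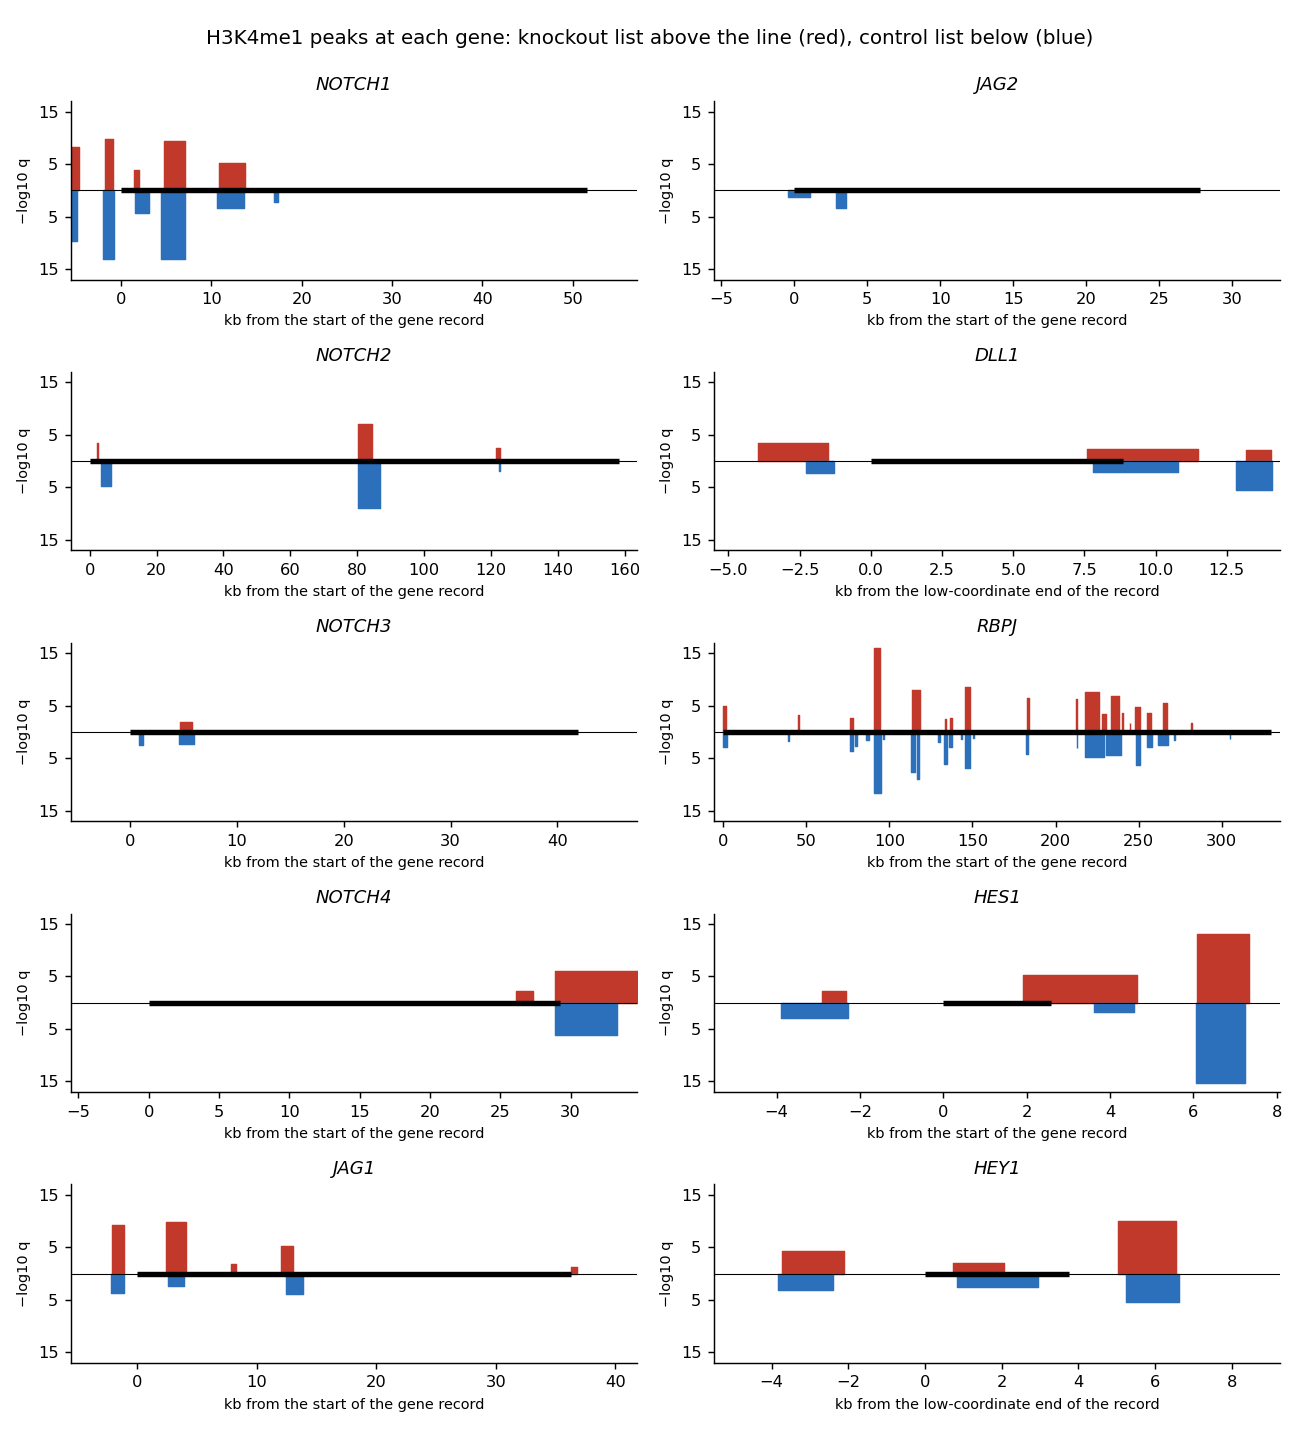
Peaks at each gene as blocks, with the distance along the gene in kb on the horizontal axis (the black bar is the gene record) and the authors' −log10 q of the peak as the height, which ranks peaks within a list. Knockout peaks stand above the line in red and control peaks hang below it in blue. The outermost blocks at NOTCH1 and NOTCH4 run past the window of 5 kb and are cut at the edge of the panel, and DLL1 and HEY1 are drawn from the low-coordinate end of the record.

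Among the receptors, NOTCH1 (chromosome 9, 136494433 to 136546048) is the one most often mutated to an active form in leukaemia and a driver of growth in some breast tumours. Its window held 5 knockout peaks covering 7033 bases, against 6 control peaks covering 8947 bases. All of these peaks lay in the first part of the gene or upstream of it, within 17342 bases of the start. On both sides of the start the peaks of the lists overlapped. The nearest upstream peak began 852 bases away in the knockout list and 763 in the control list, and the nearest downstream peak 1482 bases away in the knockout list and 1534 in the control list, leaving a gap of 2333 bases in the knockout list and 2296 bases in the control list. The upstream peak had a −log10 q of 9.86 (percentile 89.2 of its own list) in the knockout list and 13.1 (percentile 97.1) in the control list. The second downstream peak was 2403 bases wide with a −log10 q of 9.34 in the knockout list and 2679 bases with 13.1 in the control list. The first downstream peak measured 528 bases in the knockout list and 1533 bases in the control list, and a peak of 417 bases was found in the control list alone. The difference was -1914 bases, with 6550 bases covered in both lists, 483 in the knockout list alone and 2397 in the control list alone.

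NOTCH2 (chromosome 1, 119911553 to 120069662), a receptor with roles in marginal zone B cells and in the liver, had 3 peaks in each list. They covered 5502 bases in the knockout list, against 10204 bases in the control list, or 3.27% of the window in the knockout list and 6.07% in the control list. The widest lay deep in the gene, about 80 kb from the start, and measured 4083 bases in the knockout list (119985288 to 119989370, −log10 q 7.11) and 6578 bases in the control list (119982911 to 119989488, −log10 q 8.91). Near the start the lists placed different peaks, 484 bases wide in the knockout list (120067102 to 120067585, −log10 q 3.49) and 3239 bases wide in the control list (120063172 to 120066410, −log10 q 4.79). These neighbours lie 691 bases apart without overlapping. This control peak was the strongest single-list peak at any of the 10 genes. Of the bases covered by either list at NOTCH2, 37.0% were covered by both. NOTCH2 has near-identical partial copies elsewhere on chromosome 1, so values near its start are uncertain, with the handling of reads that map to several places not stated.

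NOTCH3 (chromosome 19, 15159038 to 15200995), the receptor of vascular smooth muscle, was the least covered of the receptors. It had 1 knockout peak of 1153 bases, against 2 control peaks covering 1833 bases. The shared peak lay 4676 bases downstream of the start in the knockout list, with a −log10 q of 1.97 (percentile 20.7), and had 2.32 (percentile 34.4) in the control list. The control list added a peak of 412 bases, 816 bases from the start, at a −log10 q of 2.43. No peak of either list at NOTCH3 reached a −log10 q of 5.

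NOTCH4 (chromosome 6, 32194843 to 32224067), a receptor mainly of endothelial cells, was called higher, with 2 knockout peaks covering 6513 bases and 1 control peak covering 4379 bases. Most of this lay at the far end of the gene, where the window holds the record of GPSM3, a regulator of G proteins, and the edge of PBX2, a homeobox gene. Within the GPSM3 record 4386 knockout and 4379 control bases were covered, and within the PBX2 record 360 knockout and 0 control bases. Inside the NOTCH4 record itself 1513 bases were covered in the knockout list and 307 in the control list. The knockout-only peak there was 1204 bases wide with a −log10 q of 2.19. The NOTCH4 start had no peak within 20 kb in either list, with the nearest ones 20415 bases away in the knockout list and 20357 in the control list. With 10000 bases on either side of the record the difference at NOTCH4 was -341 bases, opposite in sign.

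Among the ligands, JAG1 (chromosome 20, 10637684 to 10673999) is a ligand expressed by many breast cancer cells. It had 5 knockout peaks covering 4791 bases and 3 control peaks covering 3820 bases, a difference of 971 bases that just missed the call. All 3 control peaks overlapped a knockout peak, and the start lay in a gap of 3516 bases in the knockout list and 3726 bases in the control list. The peak upstream of the start was 955 bases wide with a −log10 q of 9.32 (percentile 87.5) in the knockout list, and 1077 bases wide with 3.66 (percentile 56.8) in the control list. The first downstream peak was 1744 bases wide with 9.88 (percentile 89.2) in the knockout list, and 1336 bases wide with 2.38 (percentile 35.6) in the control list. In each of the 3 overlapping pairs the knockout peak had the higher percentile in its own list. Ranks within lists of different length do not measure a change. At a −log10 q of 5 or more, JAG1 kept 3784 knockout bases and 0 control bases. With 50000 bases on either side it had 28558 knockout and 20521 control bases, the largest excess of the 10 genes in that window.

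JAG2 (chromosome 14, 105140995 to 105168776), the paralog of JAG1, was the one gene of the 10 with peaks in a single list. The knockout list had 0 peaks in its window, against 2 control peaks covering 2152 bases. One control peak of 1480 bases lay over the start (105167721 to 105169200), with a −log10 q of 1.25 (percentile 4.45 of its list) and a fold of 2.25. The other, of 672 bases (105165268 to 105165939), had a −log10 q of 3.43 (percentile 53.6) and a fold of 3.13. It lay 9573 bases from the nearest knockout peak. The peak over the start was among the weakest of the control list, and the list names only signal past a threshold, so the knockout list does not show that the mark was absent. Over the genome 870 genes had control peaks alone and 451 had knockout peaks alone. The nearest knockout peaks lay 6737 bases upstream and 74021 bases downstream of the JAG2 start.

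DLL1 (chromosome 6, 170282206 to 170291078), a Delta-like ligand used in mammary stem cell niches in mice, had 3 peaks in each list, each overlapping its counterpart. They covered 7067 bases in the knockout list and 5022 bases in the control list, so DLL1 was called higher. A peak of 3890 knockout and 2980 control bases lay across the high-coordinate end of the record, where the record of FAM120B also begins, and cannot be assigned to 1 of these genes. The bases shared with FAM120B made up 3673 of the knockout and 3341 of the control bases. Outside the record on the low-coordinate side, a peak of 2480 bases in the knockout list stood against one of 996 bases in the control list. All DLL1 peaks were weak in the knockout list, with −log10 q between 2.06 and 3.46. The strongest at DLL1 was a control peak of 1273 bases at 5.47. In the DLL1 record alone the difference was 229 bases, and among peaks with a −log10 q of 5 or more it was -1046 bases, opposite in sign.

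RBPJ (chromosome 4, 26105449 to 26435131), the DNA-binding protein through which all NOTCH receptors act, is the longest record of the 10 and held 19 of the 44 knockout peaks and 24 of the 50 control peaks. They covered 44139 bases in the knockout list and 58509 bases in the control list, or 13.0% of the window in the knockout list and 17.2% in the control list, a difference of -14370 bases. In each list 15 of these peaks overlapped the other list. The remaining 4 knockout peaks covered 2383 bases at a median −log10 q of 2.41, and the remaining 9 control peaks covered 6832 bases at a median of 1.51. The larger part of the deficit lay within shared peaks, which covered 41756 bases in the knockout list and 51677 in the control list. The strongest RBPJ peak lay inside the record, upstream of the clustered starts. It was 3675 bases wide with a −log10 q of 15.9 (percentile 98.1) in the knockout list (26196277 to 26199951), and 4254 bases wide with 11.7 (percentile 95.8) in the control list (26195912 to 26200165).

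Around the clustered starts of RBPJ the same domain was cut differently in the lists. The 3 starts between 26319746 and 26321228 lay in a gap of 4419 bases in the knockout list and 4867 bases in the control list. Downstream of them the control list had broad peaks of 11007 bases (26323465 to 26334471, −log10 q 4.74) and 9208 bases (26335940 to 26345147, −log10 q 4.49). The knockout list had 3 peaks over the same stretch, of 8467, 2280 and 4864 bases, with −log10 q of 7.55, 3.34 and 6.92. The start at 26343140 lay inside a peak in both lists. Because the broad control peaks fall just under a −log10 q of 5, that cutoff turned the direction at RBPJ, to 28840 knockout and 14967 control bases. Within the highest quartile of −log10 q of each list the values were 24385 knockout and 14967 control bases. RBPJ had fewer covered bases in the knockout list when all peaks were used, and more at these 2 cutoffs of −log10 q. With only the longer list cut to the length of the shorter, the RBPJ difference was -12463 bases. RBPJ also has processed copies elsewhere in the genome, which resemble its exons and not its introns.

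Of the targets, HES1 (chromosome 3, 194136148 to 194138732), a repressor that answers quickly to Notch, had 3 peaks in each list, all overlapping their counterparts. They covered 4574 bases in the knockout list and 3754 bases in the control list, a difference of 820 bases. The start lay in a gap of 4232 bases in the knockout list and 5909 bases in the control list. The gap was shorter in the knockout list because its first downstream peak began 1902 bases from the start and was 2737 bases wide (−log10 q 5.28), against 3613 bases from the start and 968 bases wide (−log10 q 1.72) in the control list. The knockout peak covered 683 bases of the HES1 record, and no control peak covered any of it. The strongest peak lay about 6 kb downstream of the start. It was 1245 bases wide with a −log10 q of 13.1 (percentile 95.6) in the knockout list (194142248 to 194143492), and 1188 bases wide with 15.3 (percentile 98.4) in the control list (194142203 to 194143390). The capitals in the HES1 promoter printed above lie inside the gap in both lists.

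HEY1 (chromosome 8, 79764010 to 79767767), a related repressor, also had 3 peaks in each list, all overlapping. They covered 4464 bases in the knockout list and 4952 bases in the control list, a difference of -488 bases. The strongest, outside the record on the high-coordinate side, was 1496 bases wide with a −log10 q of 10.1 (percentile 89.7) in the knockout list, and 1382 bases wide with 5.35 (percentile 74.0) in the control list. The peak inside the HEY1 record was weaker in both lists, 1347 bases at 1.92 in the knockout list and 2129 bases at 2.66 in the control list. At HEY1 70.4% of the bases covered by either list were covered by both, the highest share of the 10 genes, against 48.1% at HES1.

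Over the 10 windows, 36 of 44 knockout peaks (81.8%, 95% exact binomial interval 67.3 to 91.8) overlapped a control peak, against 82.7% of the knockout peaks in all protein-coding gene windows. Of the 50 control peaks, 36 overlapped a knockout peak (72.0%, 57.5 to 83.8), against 75.1% in all windows. The intervals treat peaks as independent, although RBPJ alone held 19 of the knockout and 24 of the control peaks. They do not measure the spread between cultures. The 8 knockout peaks and 14 control peaks that stood alone had a median −log10 q of 1.97 in the knockout list and 1.61 in the control list. Their −log10 q ran from 1.16 to 3.52 in the knockout list and from 1.21 to 4.79 in the control list, and their median widths were 495 bases in the knockout list and 703 bases in the control list. All 20 knockout peaks and all 14 control peaks of the 10 genes with a −log10 q of 5 or more overlapped a peak of the full opposite list, as did 97.8% of such knockout peaks and 97.2% of such control peaks in all gene windows.

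The counts were also taken under other settings. In the record alone 4 of the 10 genes were lower, against 24.5% of all genes, and NOTCH4 was the 1 higher gene, against 14.9%. With 10000 bases on either side 4 were lower (33.5% of all genes) and 0 higher (21.4%). With 50000 bases 6 were lower (46% of all genes), JAG1 alone was higher (26.2%), and NOTCH4, HEY1 and JAG2 had -5209, -3048 and -5400 bases of difference. With the same merging distance and shortest peak in both lists 4 were lower (32%) and 2 higher (18.4%). With the longer list shortened to the peak number of the other, 3 were lower (27.4%) and 2 higher (22.3%), JAG2 having -672 bases. With control bases scaled to the knockout total 4 were lower (26.8%) and 3 higher (22.6%). A call at 500 bases gave 5 lower (38.8%) and 4 higher (27%), and a call at 2000 bases gave 3 lower (18.7%) and 2 higher (11%). A fold of 4 or more gave 2 lower (19.4%) and 3 higher (14.5%).

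The choice of peaks moved the differences more than the choice of window did at NOTCH1 and RBPJ. Among peaks with a −log10 q of 5 or more, NOTCH1 had 6505 knockout and 4038 control bases, the opposite direction to the full lists. Here a peak between 10 and 14 kb downstream of the start decided the sign, because its −log10 q was 5.27 in the knockout list (2869 bases) and 3.37 in the control list (2959 bases). HES1 had 3982 knockout and 1188 control bases at that cutoff, through its first downstream peak just described. At the cutoff 4 of the 10 genes were higher (NOTCH1, JAG1, RBPJ and HES1), against 26.7% of all genes, and 2 were lower (NOTCH2 and DLL1), against 17.7%. With the highest quartile of each list, which starts at a −log10 q of 6.64 in the knockout list and 5.48 in the control list, 3 genes were higher (JAG1, RBPJ and HEY1), against 16.9% of all genes. NOTCH2 and NOTCH4 were then lower, against 22.4%. The shared NOTCH4 peak had a −log10 q of 6.13 in each list, which passed the control limit and not the knockout limit. In the same quartiles NOTCH1 had 3636 knockout and 4038 control bases. With a fold of 4 or more NOTCH1 had 1233 knockout and 4038 control bases, so both choices kept the direction of the full lists. The knockout list had 27571 peaks past a −log10 q of 5 and the control list 23884, so a fixed cutoff is not known to be equally strict in both. NOTCH2 had fewer knockout bases under each of these choices and JAG1 more.

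**Figure D4:**
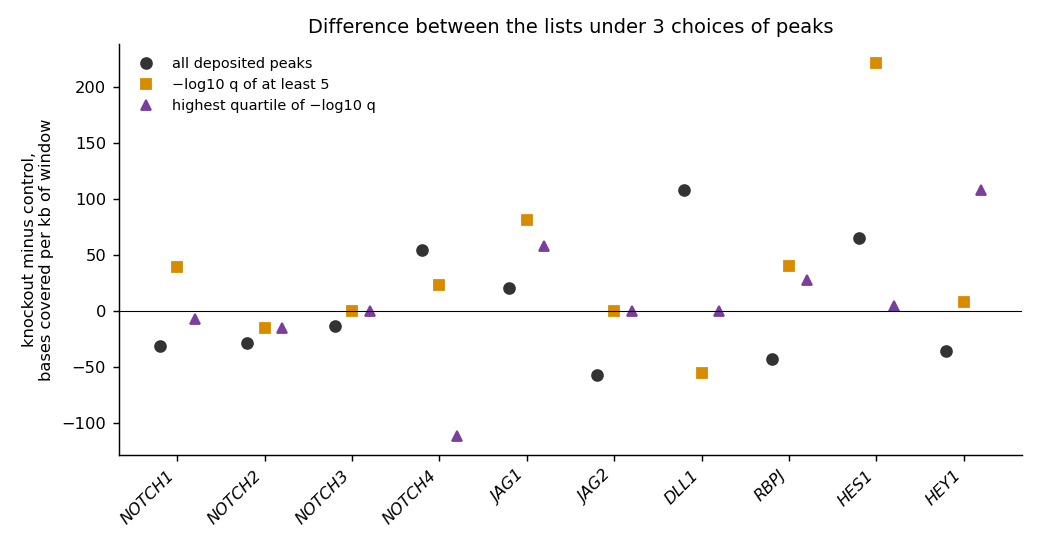
Knockout minus control covered bases per kb of window for each gene, using all deposited peaks (black circles), peaks with a −log10 q of 5 or more (orange squares) and the highest quartile of −log10 q of each list (purple triangles). The sign differs between circles and squares at NOTCH1, DLL1, RBPJ and HEY1, while NOTCH2 stays below 0 and JAG1 above 0 in all 3.

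The input background behind the peaks was estimated as (pileup + 1) / fold − 1, and the ratio of knockout to control was divided by the same ratio over the genome (1.25), so that 1 means no local departure. It ran from 0.677 at NOTCH4 to 1.19 at HES1 over the 9 genes with peaks in both lists, inside the central 90% of gene windows (0.675 to 1.51) in each case. Few peaks stand behind most of these medians, and the ratio moved with the window. Over peaks within 500000 bases of the gene it was 1.12 at NOTCH4 and 0.972 at HES1, and its extremes were 0.748 at NOTCH2 and 1.39 at NOTCH3. NOTCH2 was below 1 in both windows (0.768 in its own and 0.748 in the wider one), with lower knockout coverage. JAG1, with more knockout coverage, had nearly the same ratio as NOTCH2 in its own window (0.769) but not in the wider one (0.99968). RBPJ and HEY1 were, like NOTCH2, below 1 in both windows (0.828 and 0.943 at HEY1). JAG1 was also below 1 in both, though only just in the wider one. The peaks near the NOTCH2 start had implied backgrounds of 2.60 in the knockout list, close to the lowest value in that list, and 2.58 in the control list. The part of the local background in the NOTCH2 difference was not tested. At RBPJ the ratio was 0.936 in the gene window and 0.948 over the wider one.

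**Figure D5:**
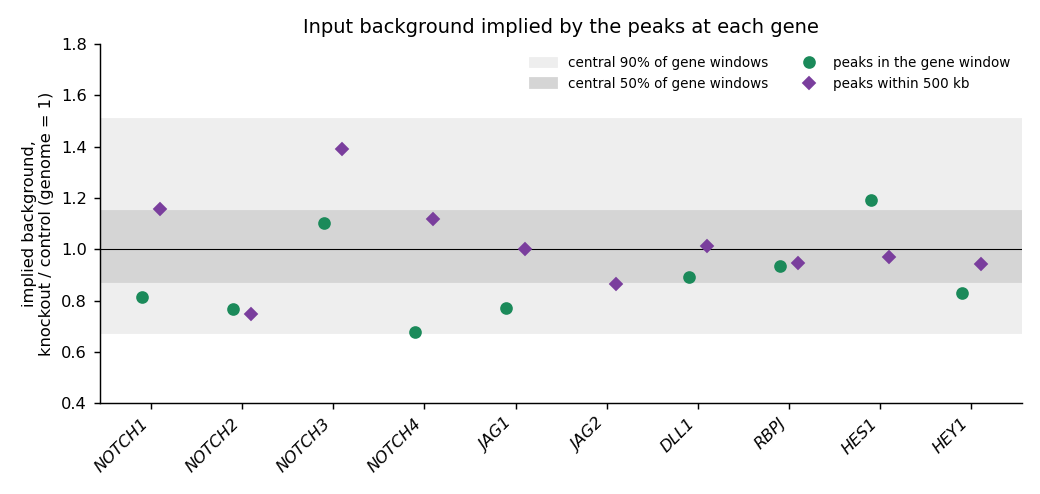
Ratio of knockout to control input background implied by local peaks, relative to the genome, for peaks in the gene window (green circles) and within 500 kb (purple diamonds), with the central 50% and 90% of all gene windows shaded. JAG2 has no circle because the knockout list has no peak there, and the NOTCH2 values are 0.768 and 0.748.

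The other genes of the pathway were described by 6 lists of 47 genes. Of these, 20 had less coverage in the knockout list and 7 had more, or 42.6% lower and 14.9% higher. Over all genes 30% were lower and 20.2% higher, and over genes with a peak in either list 35.6% were lower and 24% higher. The median over the 47 was -776 bases. At a −log10 q of 5 or more the counts were 8 lower and 12 higher of 47, close to the shares over all genes at that cutoff, 17.7% lower and 26.7% higher. Among nuclear cofactors 5 of 9 were lower and 2 higher. MAML3, a Mastermind coactivator that binds the NOTCH and RBPJ complex, had 44674 knockout and 66449 control bases, and SPEN, a corepressor of RBPJ, had 49820 knockout and 54215 control bases. Of the higher cofactors, KDM5A, an H3K4 demethylase, had 7502 knockout and 5223 control bases.

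Among the genes for traffic and turnover of receptors 6 of 12 were lower (50%) and 1 higher (8.33%), against 30% and 20.2% of all genes. Lists this short do not set a share apart from that background. ITCH, a ubiquitin ligase, had 31565 knockout and 44582 control bases, and FBXW7, which marks the intracellular receptor for destruction, had 28833 knockout and 36723 control bases. NUMB, an inhibitor of Notch, was the higher one, with 21496 knockout and 16833 control bases. Of the 9 cleavage genes 3 were lower (33.3%) and 1 higher (11.1%), near the shares over all genes. ADAM10, a protease of the outer cut, had 32341 knockout and 37599 control bases. ADAM17, which makes a like cut, had 15257 knockout and 16672 control bases. PSEN2, a catalytic subunit of gamma-secretase, had 10266 knockout and 9072 control bases.

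Of the 8 other targets 3 were lower (37.5%) and 2 higher (25%), near the 30% lower and 20.2% higher of all genes. HEY2 had 1260 knockout and 3894 control bases and HES4 had 782 knockout and 2837 control bases, whereas HES2 had 7127 knockout and 5461 control bases and HES7 had 3611 knockout and 2610 control bases. These are repressors of the same families as HEY1 and HES1. Of the 4 other ligands, too few for a share to be read, 2 were lower and 0 higher. DLL4 had 3012 knockout and 4351 control bases and DLK2 had 848 knockout and 2126 control bases. DLL3 had no peak in either list. Among 5 glycosylation genes POGLUT1, which adds glucose to the receptor, had 7553 knockout and 3834 control bases, and MFNG, a Fringe sugar transferase, had 2020 knockout and 4624 control bases. In each direction no more than 2 genes per list are named, those with the greatest differences.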

How the data were processed

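Bowtie2 2.3.5.1 and MACS2 2.2.6 with hg38 were used, per the submitters' processing notes; their settings, and how replicates were combined, were not given in the sources used here. Each list was treated as pooled over its genotype. The deposited lists hold each peak's position, pileup (a signal of stacked fragments), fold enrichment (a ratio to its own input) and −log10 q, per the file headers. The −log10 q and fold are the authors' own and only rank or filter peaks within a list. Per the labels, chromatin was digested with micrococcal nuclease.

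Python 3.11.15, pandas 2.3.3, numpy 2.4.6 and scipy 1.17.1 were used. Peaks on chromosomes 1 to 22 and X were kept, leaving out 3 knockout and 6 control peaks. Gene records came from the RefSeq table of GRCh38.p14, which shares its chromosome coordinates with hg38, and starts from its promoter table. DLL1 and HEY1 were not matched there. All 47 pathway genes matched, CIR1 through its current symbol CIRSR. Covered bases were tested on simulated lists against direct counting in 500 windows. The members and lists were chosen with earlier results of these data known. All 10 members are named, and up to 2 called genes per direction of each other list, with every protein-coding neighbour that shares covered bases; some genes that the lists hold are not reported here. The limit of 5000 bases for peaks flanking a start was set after the data were seen. Alternatives covered the window, the threshold, merging, list length, scaling, the call, the overlap and the background. The shortest peak was 361 bases long in the knockout list and 312 in the control list, and the smallest gap was 1445 bases in the knockout list and 1249 in the control list. Motifs were searched on both strands.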

Additional observations from a re-analysis of the deposited data

How the results depend on the processing

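No paired analysis was possible because the replicate numbers do not reach the deposited lists, 1 per genotype, and for the same reason no replicate could be left out. No depth is known, so weak peaks carry the most doubt. The number of lower genes among the 10, which was 4, was 2 with a −log10 q of 5 or more, a fold of at least 4, or the highest quartile of each list. The number of higher genes, which was 2, was 1 in the record alone and with 50000 bases on either side, 0 with 10000 bases, and 4 with a −log10 q of 5 or more or a call at 500 bases. The median difference of -584 bases was -2806 with 50000 bases, 522 with a −log10 q of 5 or more, and 0 with a fold of at least 4 or the highest quartile. For the 47 other genes, a −log10 q of 5 or more gave 8 lower (17.7% of all genes), 12 higher (26.7% of all genes) and a median of 0.

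Single genes changed direction as follows. With a −log10 q of 5 or more, NOTCH1 was at 2467, DLL1 at -1046, RBPJ at 13873 and HEY1 at 114 bases of difference, the HEY1 values being under the call on both sides. With a fold of at least 4, RBPJ was at 2273 and HEY1 at 1496. NOTCH1 kept its sign at that fold (-2805) and in the highest quartile (-402). NOTCH4 was at -341 with 10000 bases and -5209 with 50000 bases on either side. In the highest quartile, chosen after seeing the data, NOTCH4 was at -4379, RBPJ at 9418 and HEY1 at 1496. The NOTCH4 value came from unequal limits, 6.64 in the knockout list and 5.48 in the control list. Its shared peak had a −log10 q of 6.13 in each list. NOTCH2 and NOTCH3 kept their call in all 9 alternatives of window, peaks and scaling, though a call at 500 bases makes NOTCH3 lower (-680 bases). With a −log10 q of 5 or more, a fold of at least 4 or the highest quartile, NOTCH3 had 0 bases in both lists. Its call could not have changed under those settings. With the same merging distance (1444 bases) and shortest peak (361 bases) in both lists all 10 genes kept theirs. Restricting to a −log10 q of 5 or more brought the overlap to 100% in both lists. The cause was not tested.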
